A study of Mus musculus with 100 samples.

Results

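A set of 9 autosomal genes whose RNA normally marks germ cells was followed in mouse stem cell cultures, their differentiated derivatives and embryos: Sohlh2, Dazl, Ddx4, Mael, Asz1, Stk31, Sycp1, Sycp3 and Brdt. They are 9 of the 23109 gene entries of the RNA tables and were chosen by their read counts in these libraries, because several of them had differed between KI and reference samples in an earlier look at the files. Differences between KI and reference are therefore given for them as description, without a test. The choice used their levels in all of these libraries, so differences with stage or lineage are description too, and no test is given for the 9. MLL3 and MLL4, encoded by Kmt2c and Kmt2d, are enzymes that methylate histone H3 lysine 4 at enhancers, and the study altered both genes. RNA came from embryonic stem cells (ESCs, day 0), embryoid bodies (EBs, suspended aggregates) at days 4 and 10, retinoic acid-treated neural cultures at days 8 and 16, trophectoderm cultures at day 6, extraembryonic endoderm cultures at day 5, and whole embryos (E8.5, E9.5). Trophectoderm cells carried a doxycycline-inducible CDX2 transgene, and the endoderm cultures received retinoic acid and activin A. All cultured cells were Mll3-/-. The flox reference was Mll4flox/flox and the KI cells were Mll4KI/KI. KI embryos were Mll3flox/KI;Mll4flox/KI;Sox2-Cre and control embryos Mll3flox/KI;Mll4flox/+;Sox2-Cre, where Sox2-Cre acts in the epiblast, so controls also carried the Mll3 alleles and the Cre. The labels do not spell out KI. KI replicates were clones 27 and 48 in every culture, so each is 1 line followed through differentiation. The 37 libraries fall into 18 groups: 1 flox and 2 KI libraries at each ESC and EB stage, 2 of each genotype in the neural, trophectoderm and endoderm cultures, and 3 of each genotype at each embryo stage.

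Germline genes are silenced early in embryonic cells, by DNA methylation of promoters rich in CpG and, in ESCs, also by a noncanonical Polycomb complex (PRC1.6) that contains the E-box binding pair MGA and MAX and the repressor E2F6. They are switched on again in germ cells. The genes fall into groups by role. Sohlh2 encodes a helix-loop-helix transcription factor of early spermatogonia and oocytes, Dazl an RNA-binding protein needed for germ cell development, and Ddx4 the RNA helicase VASA. Mael, Asz1 and Stk31 act in or beside the pathway of PIWI-interacting RNAs (piRNAs), which silences transposons. Sycp1 and Sycp3 are structural parts of the synaptonemal complex that joins homologous chromosomes in meiosis, and Brdt is a testis-specific bromodomain protein of later spermatogenesis.

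Promoter sequences show what the genes share apart from the values that chose them. All 9 had an entry in the RefSeq promoter table (GRCm38.p6, 250 bases before to 50 after the start, the first entry where a gene has several), which is not the mm9 build of the deposited tables. Of these, 6 held the E-box CACGTG, a palindrome that reads the same on both strands, and Sycp3 held it at 2 places. The same letters stood in 7.24% of the first promoters of 27025 genes, and in 11.5% of the 9514 promoters with at least as many CpG as the poorest of the 9. Windows around the E-boxes are shown because that match is what 6 of the genes have in common. For Sohlh2, which held none and had the highest level of the 9, the 100 bases before the start are shown for contrast. All run 5′ to 3′ on the gene's strand, with E-boxes in capitals. Each line gives the gene, the window, the strand and the sequence.
Ddx4, chr13:112652311-112652366, minus strand: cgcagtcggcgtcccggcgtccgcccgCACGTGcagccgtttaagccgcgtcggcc
Mael, chr1:166238935-166238994, minus strand: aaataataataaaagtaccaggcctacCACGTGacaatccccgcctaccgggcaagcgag
Stk31, chr6:49395457-49395516, plus strand: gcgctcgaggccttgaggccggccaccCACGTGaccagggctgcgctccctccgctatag
Sycp1, chr3:102936162-102936221, minus strand: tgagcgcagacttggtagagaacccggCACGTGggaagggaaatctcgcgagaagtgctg
Sycp3, chr10:88459506-88459565, plus strand: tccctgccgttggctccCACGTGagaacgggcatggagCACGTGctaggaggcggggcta
Brdt, chr5:107331089-107331148, plus strand: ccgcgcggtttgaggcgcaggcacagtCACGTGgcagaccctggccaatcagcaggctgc
Sohlh2, chr3:55181944-55182043, plus strand: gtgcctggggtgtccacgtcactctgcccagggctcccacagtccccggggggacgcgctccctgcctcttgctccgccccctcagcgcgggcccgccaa
The E-boxes began between 223 bases (Mael) and 29 bases (Ddx4) before the start. Sohlh2, Dazl and Asz1 held no CACGTG in this window, which says only that these letters are not there. The E2F-type motif TCCCGC, searched on both strands (GCGGGA), occurred in Ddx4, Mael, Sycp1 and Sycp3, which is 44.4% of the 9, against 20.0% of all genes and 45.2% of those at least as rich in CpG. Of 46 other germ cell genes with an entry, 11 (23.9%) held the E-box and 18 (39.1%) the E2F-type motif. No E-box and E2F-type match overlapped in these windows. The windows held 15 to 38 CpG, with a median of 23 against 7 over all genes, and a median ratio of observed to expected CpG of 0.78 against 0.39. A match is a description of letters and not evidence of binding.

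**Figure D1:**
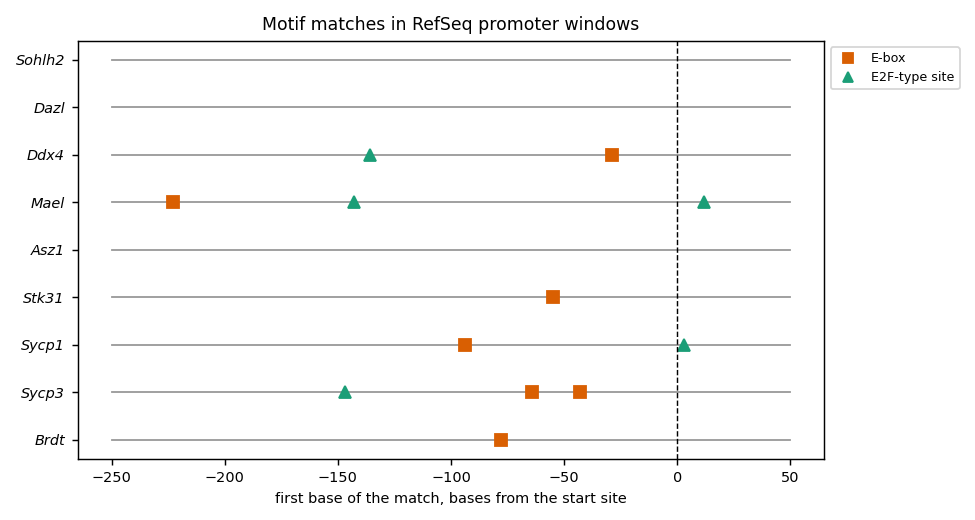
Positions of E-box (squares) and E2F-type (triangles) matches in the 300-base RefSeq promoter windows of the 9 genes, in bases from the start site (dashed line). E-boxes lie before the start in 6 genes, 2 of them in Sycp3, while Sohlh2, Dazl and Asz1 show neither motif.

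Gene-level totals ran from 18.9 to 59.9 M reads and were deepest in neural libraries (39.0 to 59.9 M). Where no read was found, up to 3 reads remain possible from counting error, which is 0.16 CPM (counts per 1000000 reads of the gene-level total) for the smallest library and 0.05 CPM for the largest. Kmt2c and Kmt2d were detected in all 37 libraries, with at least 522 and 3500 reads, and 1 value per transcript cannot show the edited alleles. The labelled identities were met by Pou5f1 in ESCs (1392 to 1478 CPM) and Tubb3 in neural day 16 cultures (754 to 1557 CPM). In the extraembryonic cultures the identity markers differed by genotype: Gata4, an endoderm factor, was at 15.5 to 17.7 CPM in KI against 169 to 183 in flox endoderm, and Elf5, a trophoblast factor, at 0.80 to 1.67 against at least 16 in trophectoderm, where Cdx2 reads, which may include the transgene, were at 103 to 107 CPM in KI and 27.1 to 29.9 in flox. Genes of late spermatogenesis were low, with at least 4 of 12 at 0 reads in every group and a summed level of at most 6.66 CPM. They were not all absent: Zpbp had reads in all 37 libraries, 1908 in total against 1676 for Mael. The summed level of the 12 lay above flox in KI ESCs (at least 3.82 against 0.952 CPM), at EB day 4 and in KI trophectoderm. It overlapped between the genotypes in the other cultures and in embryos. The 10 primordial germ cell markers, several of which other embryonic cells also make, summed to 58.1 to 706 CPM. They were at 706 in flox and 580 to 623 in KI ESCs, at 400 to 413 against 584 to 601 in trophectoderm and at 235 to 237 against 186 to 213 in endoderm. These sums hide opposite changes. In KI trophectoderm Tfap2a, Tfap2c and Ifitm3 were called higher and Prdm14, Dppa3 and Kit lower (26.7% and 24.2% of all genes). The median log2 fold change there was -0.25. In KI endoderm 4 were called higher and 3 lower (18.1% and 17.4%, median 0.46). The part of these markers in the values below was not tested. In these bulk samples fewer expressing cells and less RNA per cell cannot be told apart. The molecule label is poly(A) RNA for ESC, EB and neural libraries and total RNA for the rest, so levels across these kinds of culture are set side by side only.

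Apart from Sohlh2 in some KI cultures, the 9 genes were low-level transcripts in these libraries. Sohlh2 reached 133 CPM, Ddx4 38.4, Sycp1 23.3, Brdt 13.6, Stk31 13.1, Mael 12.4, Sycp3 10.4 and Dazl 3.01, while Asz1 never reached 1 CPM and had 0 reads in 20 of 37 libraries. The highest library was a KI library for 8 of them and the flox ESC library for Dazl. Sohlh2, Ddx4, Mael, Stk31, Sycp1 and Sycp3 had their highest levels in KI ESCs, KI day 4 EBs or KI extraembryonic cultures, and were lower than that in all neural cultures and embryos. Brdt was the exception, since its highest level came in neural day 16 cultures of both genotypes. Per length, Sohlh2 also stood above the rest: its mean RPKM (reads per kilobase of transcript and 1000000 reads) was 37.2 in KI ESCs and 43.4 in KI endoderm, where the next highest were Sycp3 at 5.58 and Ddx4 at 9.90.

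**Figure D2:**
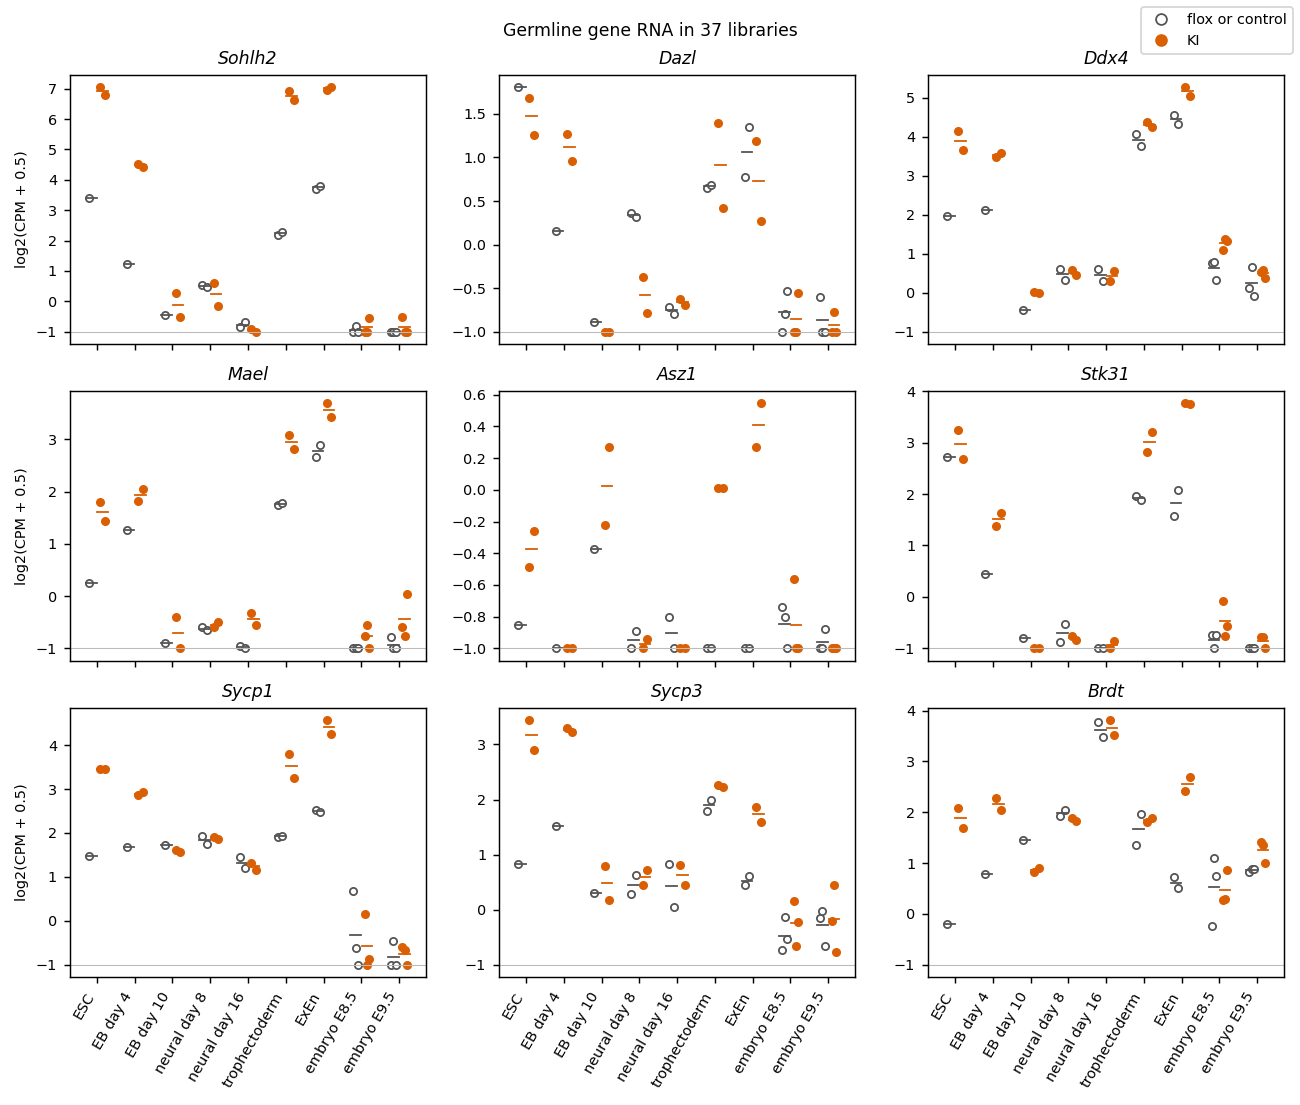
Level of each gene in every library, as log2(CPM + 0.5), with flox or control libraries as open circles, KI libraries as filled circles and short lines for group means; the grey line marks 0 reads. KI libraries lie above flox for most genes in ESCs, at EB day 4 and in the extraembryonic cultures, and among flox or control libraries for most at neural stages and in embryos.

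Sohlh2 showed the widest gap between KI and flox of the 9 in ESCs and at EB day 4. In ESCs it stood at 10.0 CPM (189 reads) in the flox library and at 133 and 110 CPM in KI clones 27 and 48. That is 13.3-fold (95% exact counting interval 11.5 to 15.5) and 11.0-fold (9.47 to 12.8). At EB day 4 the flox library had 1.84 CPM and the clones 22.5 and 21.0, again 12.2-fold (8.71 to 17.7) and 11.4-fold (8.13 to 16.5). At day 10 the gene was nearly silent and the genotypes overlapped, at 0.23 CPM in flox and 0.72 and 0.21 in KI. In trophectoderm cultures the flox libraries had 4.03 and 4.42 CPM and the KI libraries 120 and 98.3, on average 109 ± 15.4 against 4.22 ± 0.27 (SD over 2 libraries each), or 25.8-fold. In endoderm cultures flox had 12.6 and 13.4 CPM and KI 124 and 132, or 9.85-fold. KI and flox groups were far apart in ESCs, at EB day 4 and in both extraembryonic cultures, and overlapped at neural day 8, where flox had 0.95 and 0.88 CPM and KI 1.03 and 0.41. At neural day 16 KI was lower without overlap on few reads, at 2 and 0 reads (0.04 and 0 CPM) against 0.05 and 0.13 CPM in flox. In embryos no library exceeded 0.21 CPM.

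Ddx4 was higher in KI by smaller amounts. Its ESC levels were 3.44 CPM in flox and 17.2 and 12.1 in KI, which is 5.01-fold (3.85 to 6.62) and 3.53-fold (2.69 to 4.70), and at day 4 they were 3.83 against 10.6 and 11.5 CPM. In endoderm cultures, where its flox level was already high, flox libraries had 23.1 and 19.6 CPM and KI libraries 38.4 and 32.7, or 1.66-fold with no overlap. In trophectoderm the values were 16.3 and 13.2 against 20.2 and 18.5 CPM, or 1.31-fold, again with no overlap. At both neural stages the genotypes overlapped between 0.74 and 1.02 CPM. Ddx4 had reads in every embryo. Controls at E8.5 had 1.19, 1.23 and 0.76 CPM and KI embryos 1.64, 2.09 and 2.00. KI lay above control in all 3 at E8.5, while at E9.5 the groups overlapped.

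Dazl went another way. In ESCs the flox library had 3.01 CPM, above both KI clones at 2.72 and 1.89, with ratios of 0.90 (0.62 to 1.31) and 0.63 (0.42 to 0.94). At EB day 4 the order was turned, with 0.61 CPM in flox and 1.92 and 1.45 in KI. At neural day 8 flox libraries had 0.79 and 0.74 CPM and KI libraries 0.28 and 0.08. KI was lower there without overlap, on 12 and 4 reads. In trophectoderm and endoderm cultures the genotypes overlapped, with flox between 1.07 and 2.04 CPM and KI between 0.71 and 2.14.

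Of the piRNA-related genes, Mael, whose product takes part in piRNA-guided silencing, had 0.69 CPM in flox ESCs and 2.97 and 2.19 in KI. The gap was narrower at EB day 4, where flox had 1.89 CPM and KI 3.02 and 3.66. It was 2.52-fold higher in KI trophectoderm (2.84 and 2.92 against 7.96 and 6.53 CPM) and 1.77-fold higher in KI endoderm (5.81 and 6.95 against 12.4 and 10.2 CPM). At neural day 16 it was at 1 and 0 reads in flox and at 16 and 11 reads in KI (0.30 and 0.18 CPM). Stk31, a tudor-domain protein kinase-like gene, stood at 6.08 CPM in flox ESCs and at 9.00 and 5.93 in KI, with clone 27 above flox (1.48-fold, 1.17 to 1.87) and clone 48 beside it (0.97, 0.76 to 1.26). It was higher in KI at EB day 4 and in both extraembryonic cultures: 0.87 against 2.10 and 2.62 CPM at EB day 4, 3.41 and 3.19 against 6.58 and 8.75 CPM in trophectoderm, and 2.47 and 3.73 against 13.1 and 13.0 CPM in endoderm. The endoderm gap of 4.21-fold was the widest for Stk31. At EB day 10 flox had 2 reads and both KI clones 0, and at neural day 8 the genotypes overlapped (2 and 10 reads in flox, 4 and 3 in KI). Asz1, an ankyrin-repeat protein of germ cell mitochondria, had no reads in any flox trophectoderm or endoderm library. KI trophectoderm had 14 reads in each library and KI endoderm 15 and 19. Against a floor of 3 reads per library that is at least 4.26-fold higher in trophectoderm and at least 5.57-fold higher in endoderm. In ESCs Asz1 had 1 read in flox and 5 and 8 in KI, where the counting intervals of the ratio include 1.

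Of the meiotic genes, Sycp1, a structural part of the synaptonemal complex, was at 2.27 CPM in flox ESCs and 10.4 in both KI clones. In flox it stayed near that level at EB days 4 and 10 (2.71 and 2.83 CPM), while KI clones went to 6.76 and 7.10 CPM and then to 2.56 and 2.46. In trophectoderm flox had 3.25 and 3.34 CPM and KI 13.3 and 9.00, and in endoderm flox had 5.28 and 5.11 CPM and KI 23.3 and 18.4. These gaps of 3.38-fold and 4.02-fold left no overlap. Sycp3, a component of the chromosome axis, had 1.27 CPM in flox ESCs and 10.4 and 6.98 in KI, or 8.19-fold (5.38 to 13.0) and 5.50-fold (3.57 to 8.82). At day 4 flox had 2.35 CPM and KI 9.32 and 8.87. In trophectoderm the gap was 1.32-fold without overlap, at 2.96 and 3.49 against 4.32 and 4.17 CPM, but in endoderm flox had 0.87 and 1.02 CPM and KI 3.14 and 2.53. The annotated span of Sycp3 overlaps that of Chpt1 (6.41 to 28.8 CPM here), and use of strand in counting is not given in the sources used here, so its reads cannot be told from those of Chpt1 where the spans meet. Over 37 libraries the log2 levels of both genes had a Pearson r of 0.28, given as a description. The annotated spans of Sycp1 and Stk31 each overlap a pseudogene, which could hold some of their reads.

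Brdt had 0.37 CPM (7 reads) in flox ESCs and 3.73 and 2.73 in KI. It was 3.58-fold (2.27 to 5.86) and 2.95-fold (1.85 to 4.87) higher in KI at day 4. At day 10 the order was turned, with 2.25 CPM in flox and 1.28 and 1.37 in KI, and ratios of 0.57 (0.34 to 0.92) and 0.61 (0.39 to 0.95). In endoderm flox had 1.16 and 0.92 CPM and KI 4.88 and 6.01, while in trophectoderm KI (3.02 and 3.19 CPM) fell within the flox range of 2.06 to 3.42.

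**Figure D3:**
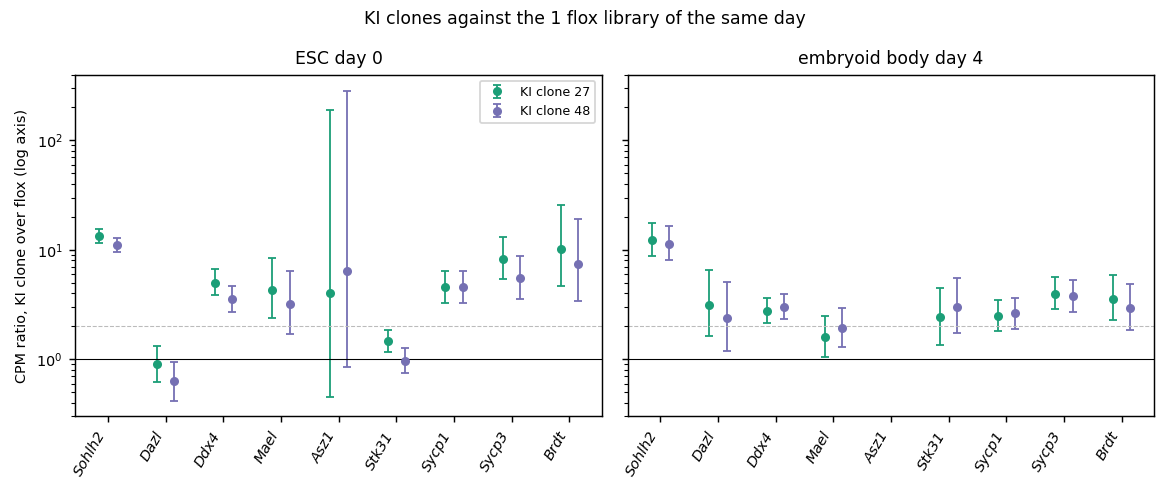
Ratio of CPM in each KI clone to the 1 flox library of the same day, on a log axis, with 95% exact counting intervals that hold no variation between cultures; the dashed line marks 2-fold. In ESCs Sohlh2 lies at 13.3 and 11.0 and Dazl below 1, while the intervals of Asz1, which rest on 1 flox read, include 1; at day 4 all genes with reads lie above 1.

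By a rule of at least 2-fold in both clones on the log2(CPM + 0.5) scale, 6 of the 8 genes that reached 1 CPM were higher in KI ESCs, against 5.18% of all genes with that level. At EB day 4 it was 5 of 8 against 1.45%, and at day 10 it was 0 of 3 against 3.50%. With 1 flox library per day these are comparisons of libraries, without a replicate check. In endoderm, KI libraries lay above flox libraries for 8 of 9 genes (37.4% of all genes tested) and below them for 0 (31.7%), and in trophectoderm above for 7 of 9 (36.7%) and below for 0 (39.5%). At neural day 8, of the 7 that passed the filter on low counts, 0 lay above flox (27.2%) and 2 below (37.7%). At neural day 16 it was 2 above (24.3%) and 1 below (44.3%). In embryos 3 genes passed the filter, Ddx4, Sycp3 and Brdt, and 1 of them lay above control at each stage, Ddx4 at E8.5 (12.0%) and Brdt at E9.5 (22.6%). Since these differences chose the genes, nothing is read from the shares.

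The pluripotency list is given beside these gaps. Of 12 pluripotency genes 10 were called lower in KI trophectoderm, against 24.2% of all genes (median log2 fold change -1.32 against 0.01 over all genes), with Sox2 at 33.0 ± 8.26 CPM in KI and 269 ± 10.7 in flox (edgeR adjusted p = 8.26e-08). In KI endoderm 2 were called higher and 4 lower, against 18.1% and 17.4% (median 0.03). The summed pluripotency level was 6507 to 6964 CPM in KI and 8202 in flox ESCs. It was 2237 to 2296 against 1684 at day 4, and 246 to 398 against 135 at day 10. The part of these differences in the germline gene levels was not tested.

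Differences between stages of the EB course follow as description for KI clones, with log2 fold changes and standard errors from the edgeR fit, because the levels in these libraries chose the genes. Between ESCs and EB day 4 Sohlh2 went from 121 to 21.7 CPM (log2 fold change -2.57, SE 0.18). Stk31 (-1.75, SE 0.31) and Sycp1 (-0.68, SE 0.17) were lower at day 4 too. The values of Ddx4, Dazl, Mael, Sycp3 and Brdt lay between -0.55 and 0.28. Asz1, under the filter on low counts, had 13 reads in KI ESCs and 0 at day 4.

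Between days 4 and 10 the 8 genes that passed the filter were lower at day 10 in KI without overlap, against 40.9% of all genes tested. Asz1, under the filter, was higher. Stk31 (-8.73, SE 0.77) and Dazl (-8.24, SE 0.84) had 0 reads in both clones at day 10, so that the size of these fits depends on the prior count. Sohlh2 went from 21.7 ± 1.05 to 0.46 ± 0.36 CPM (-5.69, SE 0.30) and Ddx4 from 11.1 to 0.51 CPM (-4.52, SE 0.26). Mael (-4.85) and Sycp3 (-3.40) were lower as well, and Brdt (-1.67, SE 0.28) and Sycp1 (-1.55, SE 0.18) by least. Asz1 had 0 reads in both clones at day 4 and 24 in all at day 10 (0.53 ± 0.25 CPM), which is at least 3.91-fold higher against a floor of 3 reads per library. Of the pluripotency genes 9 of 12 fell and 2 rose over the same interval (36.6% and 36.7% of all genes were called, median -4.87). Those that rose were Klf4 (2.44, SE 0.11, edgeR adjusted p = 2.2e-06) and Tbx3 (53.3 to 130 CPM, adjusted p = 0.0214). Flox had 1 library per day: its Sohlh2 level went from 10.0 to 1.84 and 0.23 CPM, and its Brdt level from 0.37 to 1.23 and 2.25 CPM.

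During neural culture Brdt was higher at day 16 than at day 8 in both genotypes, again given as description. Its flox libraries had 3.29 and 3.64 CPM at neural day 8 and 13.2 and 10.6 at day 16, and its KI libraries 3.19 and 3.03 and then 13.6 and 10.9. The log2 fold change was 1.82 in flox (SE 0.16) and 2.18 in KI (SE 0.16), with no overlap between the days. The annotated span of Brdt contains a lncRNA and a pseudogene, which could hold some of these reads. Sohlh2 was lower at day 16 in both genotypes, from 0.92 to 0.09 CPM in flox (-3.35, SE 0.59) and from 0.72 to 0.02 CPM in KI (-4.96, SE 0.80). Sycp1 was lower without overlap, with a log2 fold change of -0.57 (SE 0.18) in each. In flox Dazl (-2.94, SE 0.48) and Mael (-3.48, SE 0.94) were lower at day 16 as well, while in KI the days overlapped for both (-0.19, SE 0.56 and 0.57, SE 0.46), and the difference between genotypes in these changes was not tested. Ddx4 and Sycp3 overlapped between the days in both genotypes (0.05 to 0.26). Plain CPM ratios in KI sat 0.16 below the scaled ones in this comparison.

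Trophectoderm and endoderm cultures are set side by side as description, and they differ in more than lineage, since the trophectoderm lines carry the CDX2 transgene. In flox, Sohlh2 (log2 fold change -1.71, SE 0.14), Mael (-1.24, SE 0.23), Sycp1 (-0.75, SE 0.24), Dazl (-0.66, SE 0.57) and Ddx4 (-0.63, SE 0.14) were lower in trophectoderm without overlap, and Sycp3 (1.68, SE 0.34) and Brdt (1.30, SE 0.36) were higher. Asz1 had no reads in any of these 4 flox libraries. In KI, Sycp1 (-0.93, SE 0.19), Ddx4 (-0.91, SE 0.14), Brdt (-0.84, SE 0.31), Stk31 (-0.80, SE 0.22), Asz1 (-0.73, SE 0.70), Mael (-0.67, SE 0.20) and Sohlh2 (-0.26, SE 0.09) were lower in trophectoderm. Without the trophectoderm library of clone 27 or 48 the value for Sohlh2 was -0.43 or -0.12. Sycp3 was higher there without overlap (4.25 ± 0.11 against 2.83 ± 0.44 CPM, 0.55, SE 0.29), and Dazl overlapped (0.23, SE 0.56). Asz1 had 28 reads in KI trophectoderm and 34 in KI endoderm. Of all genes tested, 37.4% lay lower and 47.2% higher in trophectoderm without overlap in flox, and 37.2% and 43.5% in KI.

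**Figure D4:**
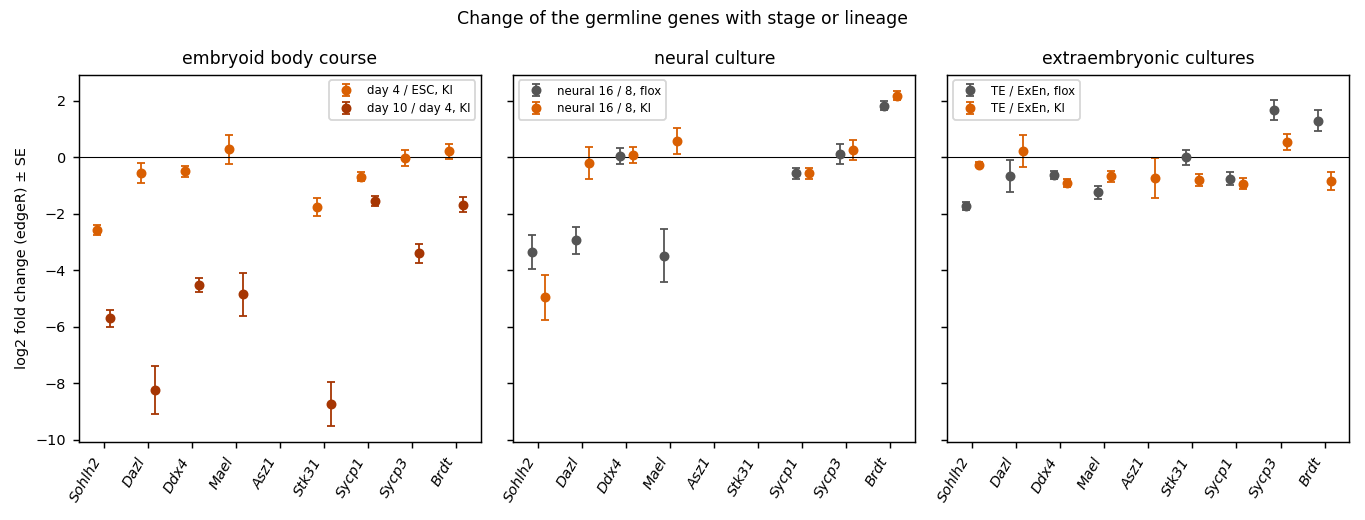
Log2 fold change with its standard error for each gene between stages of the EB course in KI, between neural days 16 and 8, and between trophectoderm (TE) and endoderm (ExEn) cultures; genes without a fit or without reads have no point. The 8 genes fitted in the EB course lie below 0 between days 4 and 10, Asz1 has no point there, Brdt lies near 2 in both neural comparisons, and Sycp3 and Brdt lie above 0 in flox in the extraembryonic panel.

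In embryos 3 genes passed the filter. Ddx4 was lower at E9.5 than at E8.5 in KI without overlap, at 0.91 ± 0.10 against 1.91 ± 0.24 CPM (SD over 3 embryos each, log2 fold change -1.13, SE 0.42), and Brdt was higher without overlap, at 1.91 ± 0.35 against 0.92 ± 0.36 CPM (0.98, SE 0.46). Sycp3 overlapped between the stages in KI (0.18, SE 0.79). In controls all 3 overlapped between the stages, with log2 fold changes of -0.64 for Ddx4, 0.43 for Sycp3 and 0.22 for Brdt.

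The tables hold 55 other germ cell genes of the lists: 14 of the piRNA pathway, 21 of meiosis and 20 regulators or other germ cell genes. In ESCs 13 of 34 that reached 1 CPM were at least 2-fold higher in both KI clones and 0 were lower (5.18% and 2.50% of all genes). At EB day 4 it was 12 of 34 and 0 (1.45% and 4.43%), and at day 10 it was 5 of 19 and 1 (3.50% and 3.91%). Averaged over the course, edgeR called 4 of 43 tested genes higher and none lower, against 0.730% of all genes, 0.398% higher and 0.332% lower, and their median was 0.66 against -0.01. The flox arm of this fit is 1 line with 1 library per day and the KI arm 2 clones over the same days, so days of a line stand in for replicates of a genotype. The 4 were Hormad2, a meiotic chromosome axis protein (8.44 CPM in KI and 0.83 in flox as means over days, log2 fold change 3.22, SE 0.27, edgeR adjusted p = 0.00946), Syce1, of the synaptonemal complex (2.07, SE 0.25), Tex19.1, which restrains retrotransposons (2.03, SE 0.23), and the tudor-domain gene Rnf17 (1.53, SE 0.14). DESeq2 called 13 of 43, all higher. Without the day 10 flox library 10 were called, without the day 4 library of clone 48 only 2, and with either KI clone left out 0, with 13 at an unadjusted p under 0.05 in each case.

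In KI endoderm cultures 23 of the 42 tested other germ cell genes were called higher and 2 lower, against 18.1% and 17.4% of all genes, with a median log2 fold change of 1.24 against 0.00. By role it was 6 higher and 2 lower of 12 piRNA genes, 9 and 0 of 16 meiotic genes, and 8 and 0 of 14 regulators. Fkbp6 (18.8 CPM in KI against 1.00 in flox, 4.20, SE 0.33, edgeR adjusted p = 4.01e-07), Piwil2 (19.0 ± 1.93 against 2.07 ± 0.40 CPM, 3.17, SE 0.20) and Gpat2 (2.52, SE 0.16) led the piRNA genes, and Tdrd5 (2.88 ± 0.29 against 17.4 ± 0.01 CPM, -2.63, SE 0.20) and Tdrd12 (-1.73, SE 0.51) were lower. Hormad2 (3.46, SE 0.36), Hormad1 (2.98, SE 0.91) and Stra8, the retinoic acid-induced gatekeeper of meiosis (16.3 ± 0.76 against 2.48 ± 0.40 CPM, 2.69, SE 0.26, adjusted p = 2.37e-06), led the meiotic genes. Tuba3b (4.41, SE 0.47), Tex101 (3.39, SE 1.07) and Tuba3a (3.25, SE 0.45) led the rest, and the nearly identical Tuba3a and Tuba3b may share reads.

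In KI trophectoderm 14 of 42 were called higher and 5 lower, against 26.7% and 24.2%, with a median of 0.21 against 0.01. Piwil2 (2.18, SE 0.17, edgeR adjusted p = 1.03e-07), Fkbp6 (2.06, SE 0.32), Gpat2 (1.90, SE 0.15), Syce1 (2.61, SE 0.31), Sycp2 (2.13, SE 0.25) and Slc25a31 (3.83, SE 0.51) were among the higher genes. Morc1 (-1.98, SE 0.29), Pld6 (-1.40, SE 0.38), Tdrd12 (-1.34, SE 0.36), Stra8 (-1.27, SE 0.42) and Dmc1 (-1.03, SE 0.31) were the lower ones. Altogether 13 genes were called higher in both cultures, which is 92.9% of the 14 in trophectoderm and 56.5% of the 23 in endoderm. Over all genes tested 1457 were called higher in both, 35.1% of the 4150 in trophectoderm and 51.8% of the 2811 in endoderm. The cultures share the KI clones but no library.

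The same list was tested in neural cultures and embryos. At neural day 8, 7 of 36 were called higher and 3 lower (6.30% and 13.2% of all genes, median 0.05 against 0.00), with Tex19.1 (2.08, SE 0.37, edgeR adjusted p = 0.00158), Lhx8 (1.96, SE 0.44), Tdrd1 (1.47, SE 0.27), Rnf17 (1.45, SE 0.20), Stag3 (1.04, SE 0.13), Rec8 (1.03, SE 0.11) and Meioc (0.83, SE 0.17) higher and Stra8 (-1.37, SE 0.29), Tdrd5 (-1.36, SE 0.38) and Tex14 (-1.09, SE 0.34) lower. DESeq2 called 6, all higher, and edgeR called 6 without either flox day 8 library. At day 16 it was 7 and 5 of 36 (27.1% and 19.7%, median 0.25 against 0.09), with Tex19.1 (4.20, SE 0.84), Tdrd1 (2.82, SE 0.26) and the meiotic cohesin subunit gene Rec8 (15.9 ± 0.70 against 5.29 ± 0.09 CPM, 1.79, SE 0.13, adjusted p = 8.33e-07) among the higher ones. The lower ones were Tdrd9 (-1.94, SE 0.55), Msh5 (-1.29, SE 0.27), Dmrtb1 (-1.11, SE 0.32), Syce2 (-0.58, SE 0.14) and Prdm9 (-0.46, SE 0.16). At E8.5 1 of 27 was called higher and 0 lower (3.63% and 1.83%, median 0.23 against -0.01), namely Stag3, another cohesin subunit gene (0.83, SE 0.24, adjusted p = 0.0499), a call that was lost without any 1 of KI libraries 1 and 2 and control libraries 2 and 3. At E9.5 it was 4 higher and 2 lower (14.6% and 14.9%, median 0.44 against 0.01), with Smc1b (2.32, SE 0.78), Stag3 (1.16, SE 0.23), Zcwpw1 (0.96, SE 0.28) and Syce2 (0.42, SE 0.13) higher and Dmrtb1 (-2.80, SE 0.76) and Lhx8 (-2.15, SE 0.57) lower. Without control library 2 of E9.5, 2 were called. Beside these, 3 of 7 tested primordial germ cell markers were called higher and 0 lower in KI embryos at E8.5, and 5 and 0 at E9.5 (medians 0.35 and 0.77), and their part in the embryo values was not tested.

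**Figure D5:**
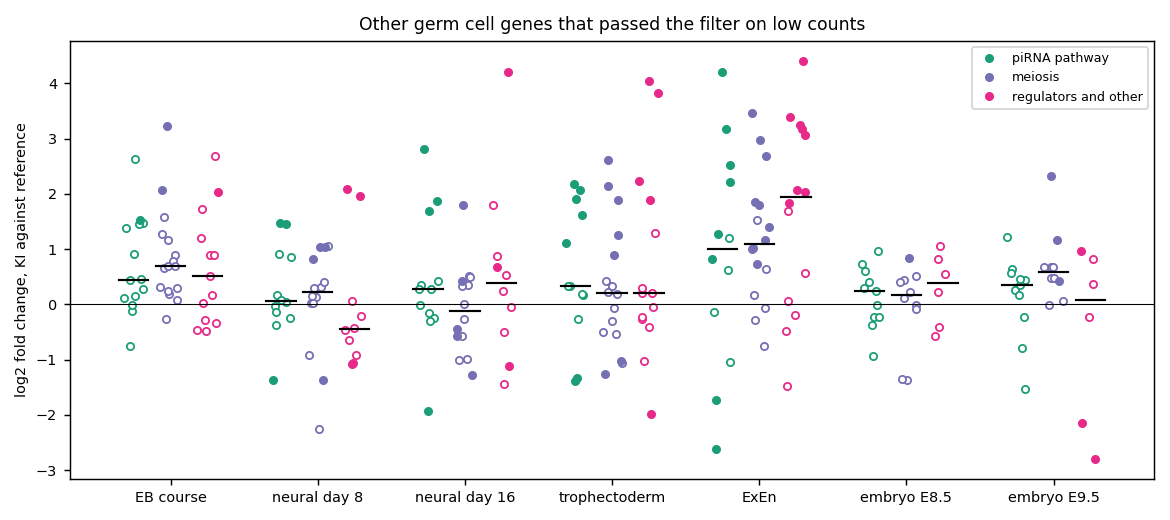
Log2 fold change, KI against flox or control, of each other germ cell gene that passed the filter, by role; filled points passed an edgeR adjusted p of 0.05 and black bars mark medians. The medians of all 3 roles stand highest in endoderm (ExEn) cultures, where 23 of 42 genes were called higher.

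Between stages of KI EBs, 20 of 39 other germ cell genes were called lower and 10 higher from ESCs to day 4 (23.8% and 26.5% of all genes), and 31 lower and 0 higher from day 4 to day 10 against 36.6% and 36.7%, with a median of -3.48 against 0.00. In either direction edgeR had 31 at an unadjusted p under 0.05, and DESeq2 called 31. Morc1, which silences transposons in male germ cells, fell from 104 to 5.25 CPM by day 4 (-4.40, SE 0.10, edgeR adjusted p = 7.55e-07), and Tdrd5 rose from 0.74 to 11.9 CPM (SE of the log2 fold change 0.34, adjusted p = 9.23e-05). Between neural days, 8 were called higher and 15 lower in flox (38.4% and 38.7% of all genes) and 13 and 15 in KI (40.7% and 39.2%), of 36. Between trophectoderm and endoderm, 18 were called higher and 8 lower in flox (32.2% and 32.5%) and 10 and 9 in KI (32.3% and 30.8%), of 42. Between E8.5 and E9.5, 5 were called higher and 1 lower in control embryos (12.2% and 12.1%) and 7 and 1 in KI (15.9% and 16.6%), of 27. Without control library 1 of E9.5, 3 were called in controls, and without KI library 1 or 2 of E8.5 or KI library 2 of E9.5, 5, 5 and 3 in KI. Of 13 genes for PRC1.6 and partner proteins, 0 were called higher and 3 lower in KI endoderm (18.1% and 17.4% of all genes, median -0.07) and 4 higher and 2 lower in KI trophectoderm (26.7% and 24.2%, median 0.02). Cbx3 (-0.48 and -0.36) and Hdac2 (-0.47 and -0.35) were lower in both cultures, and Max was higher in trophectoderm (0.95, SE 0.07). Genes for DNA and H3K9 methylation and demethylation (11 genes) had 2 called higher and 6 lower in KI endoderm (median -0.21) and 3 and 5 in KI trophectoderm (median -0.16), against the same shares. The list mixes enzymes that add and remove the marks. Its largest changes were in Dnmt3l, a cofactor of de novo DNA methylation (1.18 ± 0.59 CPM in KI against 14.6 ± 2.35 in flox endoderm, -3.64, SE 0.23, edgeR adjusted p = 7.88e-08, and -1.82, SE 0.13 in trophectoderm), in the de novo methyltransferase gene Dnmt3b (22.5 ± 3.13 against 135 ± 1.25 CPM in endoderm, -2.61, SE 0.08, adjusted p = 3.85e-11, and -0.93, SE 0.07 in trophectoderm) and in Tet1, which oxidises methylated cytosine (-0.96, SE 0.23 and -1.52, SE 0.22). Tet2 (0.45) and Dnmt3a (0.19) were the higher ones in endoderm, and Dnmt1 (0.84), Ehmt2 (0.55) and Uhrf1 (0.16) in trophectoderm. In the EB course 0 of the 13 and 0 of the 11 genes were called, against 0.730% of all genes (medians 0.01 and 0.16). The summed level of the 11 was 2502 to 2598 CPM in KI and 2344 in flox ESCs, and 3695 to 3710 against 2475 at day 4. The part of both lists in the germline gene levels was not tested.

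The genes whose profile over the 37 libraries was most like the mean profile of the 9 were taken from 14424 others with a mean of at least 1 CPM, by Pearson r of log2(CPM + 0.5). They were Piwil2 (r = 0.96), Gpat2 (0.96), Naa11 (0.95), Tex19.1 (0.94) and Mageb16 (0.93), with highest levels of 36.4, 30.8, 30.2, 172 and 53.6 CPM. Of these, 3 are on the list of other germ cell genes, and Tex19.1 has a close copy, Tex19.2, with which reads may be shared. Among the 9, each gene set against the mean of the others gave r of 0.96 for Sohlh2, 0.91 for Stk31, 0.89 for Mael and Sycp1, 0.87 for Ddx4, 0.83 for Sycp3 and 0.80 for Dazl, but 0.45 for Asz1 and 0.21 for Brdt. The closest pairs were Sohlh2 with Stk31 and Ddx4 with Mael, both at 0.96. All points share libraries, clones and differences between cultures, so these values describe the tables only.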

How the data were processed

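RNA libraries (poly(A) selection and NEBNext per the labels' protocols, although the molecule label is total RNA for trophectoderm, endoderm and embryo libraries) were read from 37 deposited tables of 29082 transcripts, each with read counts and RPKM values made by the authors, per the file headers. The submitters' processing notes name bcl2fastq, STAR, Bowtie2, SICER 1.1 and mm9. The counter, annotation version and use of strand are not given in the sources used here. The other 63 of 100 samples were not analysed here. Transcripts were matched to symbols (28436 matched, and 646, with 1.25% to 2.13% of reads, kept unnamed), and the transcript with most reads stood for each gene.

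Levels are counts per 1000000 (CPM) of the gene-level total, and RPKM served only to compare genes. Tests used edgeR 4.0.16 (R 4.3.3): filterByExpr (minimum 10 reads), TMM, robust quasi-likelihood fits that shared the spread over all groups of a culture (with day as a factor in the EB course), and Benjamini-Hochberg adjustment over all genes. A gene with adjusted p under 0.05 is termed called. Planned stage and lineage fits of the 9 are given without p, since the choice used those levels. In neural day 16 cultures plain CPM put the median KI to flox ratio of all genes 0.18 (log2) below the TMM-scaled one. Alternatives were DESeq2 1.42.0, its size factors, no filter, sums over transcripts, a replicate block and leaving out libraries. The fits were also run on simulated data. Those libraries were independent with a fixed spread, so clones followed across days were not covered, and no result given here rests on them. Replicates differed beyond sampling noise, least in the flox neural day 8 pair (chi-square per degree of freedom 1.5, against at least 2.76 elsewhere). Where nothing says that libraries came from separate cultures, p-values measure the spread between libraries only.

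KI clone numbers mark 1 line across stages and so pair samples. Deviations of same-numbered samples correlated at 0.12 to 0.33. The 9 genes and all lists were chosen with earlier results of these data known. Named genes are the 9, the called genes of each list with the largest changes (at most 3 per direction and list) and the 5 most alike. Tubb3, Gata4, Elf5, Cdx2 and Chpt1 are outside that rule and were chosen after values were seen.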

Additional observations from a re-analysis of the deposited data

Results flagged for a closer look

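Of the germline genes, 3 had KI libraries all above the reference in some cultures and all below it in others, counting only cultures where some library had at least 1 CPM. These differences between cultures were not tested, and the values are log2 ratios of mean CPM with 0.5 added. Dazl was lower in KI ESCs (-0.33) and higher in KI EBs at day 4 (0.97). Under that limit Dazl was also lower in KI at neural day 8 and higher at neural day 16. Sohlh2 was lower in KI at neural day 16. At EB day 10 Dazl had 1 read and Stk31 had 2 reads in flox, and both had 0 in KI. Sycp1 was higher in KI ESCs (1.97), at EB day 4 (1.21), in trophectoderm (1.62) and in endoderm cultures (1.91), and slightly lower at EB day 10 (-0.15). Brdt was higher in KI ESCs (2.10), at EB day 4 (1.38), in endoderm cultures (1.95) and in E9.5 embryos (0.41), and lower at EB day 10 (-0.59) and neural day 8 (-0.13). In the single-library flox groups of the EB course such an order means only that both clones lie on 1 side of 1 library.

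Brdt also differed by lineage in opposite directions: it was higher in trophectoderm than in endoderm cultures in flox (1.07 on the same scale) and lower in KI (-0.72), with no overlap of libraries in either. The difference between the genotypes was not tested. No group held 4 or more libraries, so no library was examined as an outlier.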

How the results depend on the processing

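The counts that moved by more than 1.5 times were these; the cause was not tested. DESeq2 called 13 other germ cell genes in the EB course (4 by edgeR) and 6 at neural day 8 (10 by edgeR). At E8.5 the 1 call among them became 0 with DESeq2 size factors or with sums over transcripts. A 3-fold minimum, chosen after seeing the data, left 2 of 8 genes at EB day 4 against 0.433% of all genes (5 and 1.45% at 2-fold). Leaving out single libraries gave 0 to 10 calls of other germ cell genes in the EB course (the 0 without a whole clone, an alternative added after seeing the data), 6 to 8 at neural day 8, 0 to 1 at E8.5, 2 to 7 at E9.5, and 3 to 7 (control) and 3 to 8 (KI) between embryo stages. Of 455 refitted log2 fold changes of the 9 between KI and reference, 423 lay within 1 standard error of the value given. The other 32 did not, and of the 455, 18 had the other sign. Of 483 refitted log2 fold changes with stage or lineage, 450 lay within 1 standard error and 33 did not. Of the 483, 23 had the other sign. The replicate block moved the stage and lineage fold changes by at most 0.05. With it 29 and 31 other germ cell genes were called in the KI EB steps, 25 and 27 between neural days in flox and KI, and 24 and 21 between the extraembryonic cultures. For flox lines (r of 0.05 and -0.01) the samples share only a number. KI and control embryos also share numbers in their titles, whose meaning the labels do not give. Their r of 0.09 to 0.26 overlaps the 0.12 to 0.33 of KI clones. In embryos the block gave 1 call among the other germ cell genes at E8.5 and 6 at E9.5. Low read counts limit Asz1 throughout, and all of the 9 in embryos but Ddx4, Sycp3 and Brdt.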
